A study of Mus musculus with 45 samples.

Results

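The BCL2 family sets the threshold for mitochondrial cell death, and 10 of its genes were followed here: the survival genes *Bcl2*, *Bcl2l1* and *Mcl1*, the effector genes *Bak1* and *Bok*, and the BH3-only genes *Bid*, *Bad*, *Bcl2l11*, *Bmf* and *Bik*. They were chosen by symbol, as family members that are not counted among the p53 targets, from the 55385 genes of the expression tables. All 10 have an entry in each of the 18 RNA-seq libraries, at 0 counts in some. The rule names them by symbol with no threshold on a measured value, although it was written with earlier results of these data known.

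Each sample carried the FKBP-based degron tag on both *Gabpa* alleles (*Gabpa*-dTAG/dTAG), the DMSO controls included. dTAG13 is a small molecule that brings the tagged GABPA protein, an ETS-family transcription factor, to a ubiquitin ligase. The protein is lost, but nothing in this step removes the messenger RNA. Late two-cell embryos were kept in 1 μM dTAG13 or in DMSO from 6 h post-fertilization (hpf) and collected at 30 hpf (3 libraries per group). Morulae were treated with 1 μM from the four-cell stage at 42 hpf (2 per group), and the embryonic day 4.5 inner cell mass (E4.5 ICM) with 1 μM from 84 to 100 hpf (2 per group). 2iES cells, mouse ES-E14 cells grown with inhibitors of MEK and GSK3 plus LIF, received 0.5 μM for 24 h (2 per group). The females that gave the oocytes were 7 to 8 weeks old and the males 8 to 12 weeks. The E4.5 ICM is what remains after immunosurgery removes the trophectoderm (TE), a mixture of epiblast (EPI) and primitive endoderm (PrE), and the tagged ES line came from single clones that were picked and genotyped. The mouse line was made in injected two-cell embryos and backcrossed to C57BL/6J. The tag is thus shared by both arms of each comparison. The study also followed wild-type embryos given dTAG13 and reported that their development was not affected. No RNA-seq library of untagged embryos or cells was analysed here. An effect of the compound on transcripts and the loss of GABPA thus cannot be told apart. Doses and lengths of treatment differed between embryos and ES cells.

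Cells that receive a death signal pass through a contest among these proteins at the outer mitochondrial membrane. BCL2, BCL-XL (the product of *Bcl2l1*) and MCL1 bind and restrain their pro-death relatives. BH3-only proteins such as BID and BIM (the product of *Bcl2l11*) occupy the survival proteins or activate the effectors directly, and the effectors BAK and BOK permeabilize the membrane, releasing cytochrome c towards the apoptosome and the caspases. Cells are removed by apoptosis in normal mouse blastocysts, and embryos without MCL1 die around implantation. The data here are messenger RNA levels, and many of these proteins are controlled by phosphorylation, cleavage or turnover, which RNA-seq does not measure.

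Total expected counts ran from 9457933 to 27660132 per library, with the lowest totals in morulae. *Gabpa* messenger RNA, whose level does not report loss of the protein, was 105.88, 116.29 and 87.31 TPM (a share of all transcripts, corrected for their length) in late two-cell embryos with DMSO and 162.17, 141.49 and 156.03 with dTAG13. It was also higher with dTAG13 in every library of the other stages. Markers of the labelled cell types were detected: all 9 EPI markers had a mean of at least 1 TPM in the DMSO groups of the morula, E4.5 ICM and 2iES, and all 8 PrE markers did in the E4.5 ICM. In the E4.5 ICM the 8 TE markers moved with treatment. Their summed level was 81.1 to 85.4 TPM with DMSO and 790.2 to 791.2 TPM with dTAG13. Of these 8, 7 were higher, and none was at 0 in all libraries of a group. All 9 EPI markers were lower (853.3 to 875.5 TPM against 500.4 to 509.0). Of the 8 PrE markers 6 were higher and 2, *Sox17* and *Sox7*, were lower (sums of 566.0 to 574.6 against 1085 to 1093). The part of this shift in the E4.5 ICM results below was not tested. The study chose 100 hpf for this collection as a time before EPI cell numbers parted between the treatments. In bulk samples of this kind, fewer cells of a type and less RNA per cell cannot be told apart.

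GABPA and other ETS factors recognise DNA with a GGAA core, and the letters CCGGAAG are a typical GABPA site. The windows from 250 bases before to 50 bases after the RefSeq start sites (GRCm38.p6) of 9 members were searched on both strands for CCGGAAG, which 8.86% of all 32851 RefSeq windows held, and for the shorter CGGAAG inside it, which 16.9% held. *Bik* was not among the windows. The 30-base stretches that held a match are shown because they belong to the genes whose levels are described below, in the direction of each gene, with the matched letters in capitals. CTTCCGG and CTTCCG are the same letters read on the other strand.
*Mcl1*, chr3:95658635-95658664, + strand: CGGAAGccgcgagagcgctccggCCGGAAG
*Bcl2l11*, chr2:128125921-128125950, + strand: ggtggggcttacCTTCCGGcttgccggggg
*Bcl2l1*, chr2:152831679-152831708, - strand: gcgctgccgcggcaCCGGAAGtggctgcgc
*Bcl2l1*, chr2:152830803-152830832, - strand: cctttagggtttCGGAAGcctcatctaggg
*Bad*, chr19:6941823-6941852, + strand: cactgaaggaaaCTTCCGcccacaaccaag
CCGGAAG thus stood in windows of *Mcl1*, *Bcl2l11* and *Bcl2l1*, starting 63 and 105 bases before the start site in the first 2 and 35 bases after an upstream start site of *Bcl2l1*. *Bad* and a second *Bcl2l1* start site held the shorter letters only, 26 and 103 bases before the start, and *Mcl1* held them a second time at 86 bases. The windows of *Bid*, *Bok*, *Bak1*, *Bcl2* and *Bmf* held neither, nor did a further window each of *Bad*, *Bcl2l11* and *Bcl2l1*. The shares given above are per window, whereas *Bcl2l1* and *Bmf* had 3 windows each and *Bad* and *Bcl2l11* had 2 each. A match is a description of letters and does not show binding, and the GABPA binding libraries of the series were not analysed here.

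*Mcl1*, which encodes a short-lived survival protein, had the highest level of the 3 survival genes followed here at every stage. *Bcl2l10*, a survival gene of oocytes outside these 3, stood above it in late two-cell DMSO libraries at 78.13, 73.99 and 85.15 TPM and was at most 0.32 TPM in those of the later stages. The *Mcl1* gene lies on GRCm38 chromosome 3 from 95658788 to 95663176. In DMSO libraries *Mcl1* stood at 25.99, 26.14 and 27.96 TPM in late two-cell embryos and 45.72 and 38.91 in morulae. It was at 27.24 and 29.53 TPM in the E4.5 ICM and 21.29 and 23.24 in 2iES cells. Morulae were thus above the other 3 stages, and the difference in count passed the test against each of them (edgeR quasi-likelihood test over the 9 DMSO libraries, log2 change from morula to E4.5 ICM -0.94, standard error 0.15, adjusted p = 0.000342). The late two-cell stage and the E4.5 ICM could not be separated (adjusted p = 0.810), nor could 2iES cells and the late two-cell stage (adjusted p = 0.0589), for which counts and TPM gave opposite orders. *Bcl2l1* (chromosome 2, 152780668 to 152831728) followed at a lower level, with 4.66 to 5.11 TPM in late two-cell embryos, 5.60 and 3.01 in morulae, 11.20 and 11.55 in the E4.5 ICM, and 3.68 and 3.42 in 2iES cells. The E4.5 ICM was the high point of *Bcl2l1* (against the late two-cell stage, log2 difference 1.00, standard error 0.25, adjusted p = 0.00307), and the other 3 stages did not pass the test against their neighbours. Without the second E4.5 ICM library that difference did not pass (adjusted p = 0.0536). *Bcl2* (chromosome 1, 106538178 to 106714274) was close to absent, with 0 to 18.34 expected counts per library and at most 0.11 TPM in any of the 18 libraries, so its change with dTAG13 was tested within no stage. *Mcl1* made up 84.1% to 84.7% of the summed TPM of the 3 survival genes in late two-cell DMSO libraries, 89.0% to 92.8% in morulae, 70.7% to 71.8% in the E4.5 ICM and 85.2% to 87.1% in 2iES cells.

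The BH3-only member with the highest TPM was *Bcl2l11* in all late two-cell libraries, *Bad* in all morula and E4.5 ICM libraries and *Bid*, just ahead of *Bad*, in both 2iES libraries with DMSO. *Bcl2l11* (chromosome 2, 128126038 to 128162547), which encodes BIM, an activator that also binds the survival proteins, was at 62.87, 69.86 and 60.71 TPM in the late two-cell DMSO libraries. It stood at 10.99 and 16.65 TPM in morulae, 2.7 and 3.23 in the E4.5 ICM and 1.98 and 1.79 in 2iES cells. Each step down passed the test, with log2 changes in count of -1.84 from late two-cell to morula (adjusted p = 3.66e-06), -1.90 on to the E4.5 ICM (adjusted p = 2.33e-05) and -0.86 from there to 2iES (adjusted p = 0.00888; edgeR, 2 or 3 libraries per stage). The last step was lost when the second E4.5 ICM or the second 2iES library was left out (adjusted p = 0.0581 and 0.0518). *Bad* (chromosome 19, 6941861 to 6951899), whose protein is held inactive by phosphorylation under growth-factor signalling, ran the other way. Its DMSO levels were 10.87 to 13.68 TPM in late two-cell embryos, 37.15 and 34.34 in morulae, 36.08 and 38.43 in the E4.5 ICM and 36.35 and 26.00 in 2iES cells. The late two-cell stage was below each of the other 3 (smallest difference in count, from the E4.5 ICM, log2 1.63, standard error 0.19, adjusted p = 6.15e-06), while the other 3 did not pass the test against their neighbours.

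*Bid* (chromosome 6, 120891930 to 120916853) links the death receptors to mitochondria once caspase-8 has cleaved its protein. With DMSO it was at 20.08, 18.37 and 20.87 TPM in late two-cell embryos, 2.51 and 3.18 in morulae, 9.48 and 9.76 in the E4.5 ICM and 37.68 and 29.83 in 2iES cells. No 2 stages overlapped, and all 6 pairs of stages passed the test, with 2iES above the late two-cell stage by 1.33 on the log2 scale (adjusted p = 9.87e-06) and morulae below the E4.5 ICM by 1.35 (adjusted p = 0.000185). *Bik* (chromosome 15, 83526862 to 83544634), a BH3-only protein of the endoplasmic reticulum, was at 3.23 to 4.56 TPM in late two-cell embryos and 2.55 and 2.34 in 2iES cells, but had 0 and 2 counts in the morulae and again 0 and 2 in the E4.5 ICM. *Bmf* (chromosome 2, 118528757 to 118549687), which acts when cells lose their anchorage, held 8 to 32 counts per DMSO library and at most 0.78 TPM, and none of its 6 stage pairs passed the test.

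The 2 effectors followed here were thinly expressed except for *Bok* in morulae. *Bax*, an effector outside these 2, had DMSO means of 32.7 TPM in late two-cell embryos and 194.9 in morulae. It was at 351.3 TPM in the E4.5 ICM and 609.3 in 2iES cells. *Bok* (chromosome 1, 93685660 to 93695764), which can permeabilize mitochondria without help from BH3-only proteins, was at 3.06, 1.62 and 1.42 TPM in late two-cell DMSO libraries, 29.83 and 26.58 in morulae, 2.08 and 3.27 in the E4.5 ICM and 10.89 and 7.49 in 2iES cells. Morulae stood 22.6-fold above late two-cell embryos in scaled count (log2 4.5, 95% interval 3.81 to 5.19, adjusted p = 9.38e-08) and above 2iES cells by 1.39 on the log2 scale (adjusted p = 0.00274). The E4.5 ICM and the late two-cell stage could not be separated (adjusted p = 0.108). *Bak1* (chromosome 17, 27019810 to 27029009), a partner of BAX in most tissues, had at most 1.05 counts per DMSO library in late two-cell embryos and morulae, 9 and 13 in the E4.5 ICM and 34.23 and 34.45 in 2iES cells, or at most 0.56 TPM. Over all members, 33 of the 54 member and stage pairs tested in DMSO libraries passed the test, against 60.0% of the same tests over all 19830 genes, so the members were near the background in this respect. Stage and any difference in handling of the libraries cannot be told apart.

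**Figure D1:**
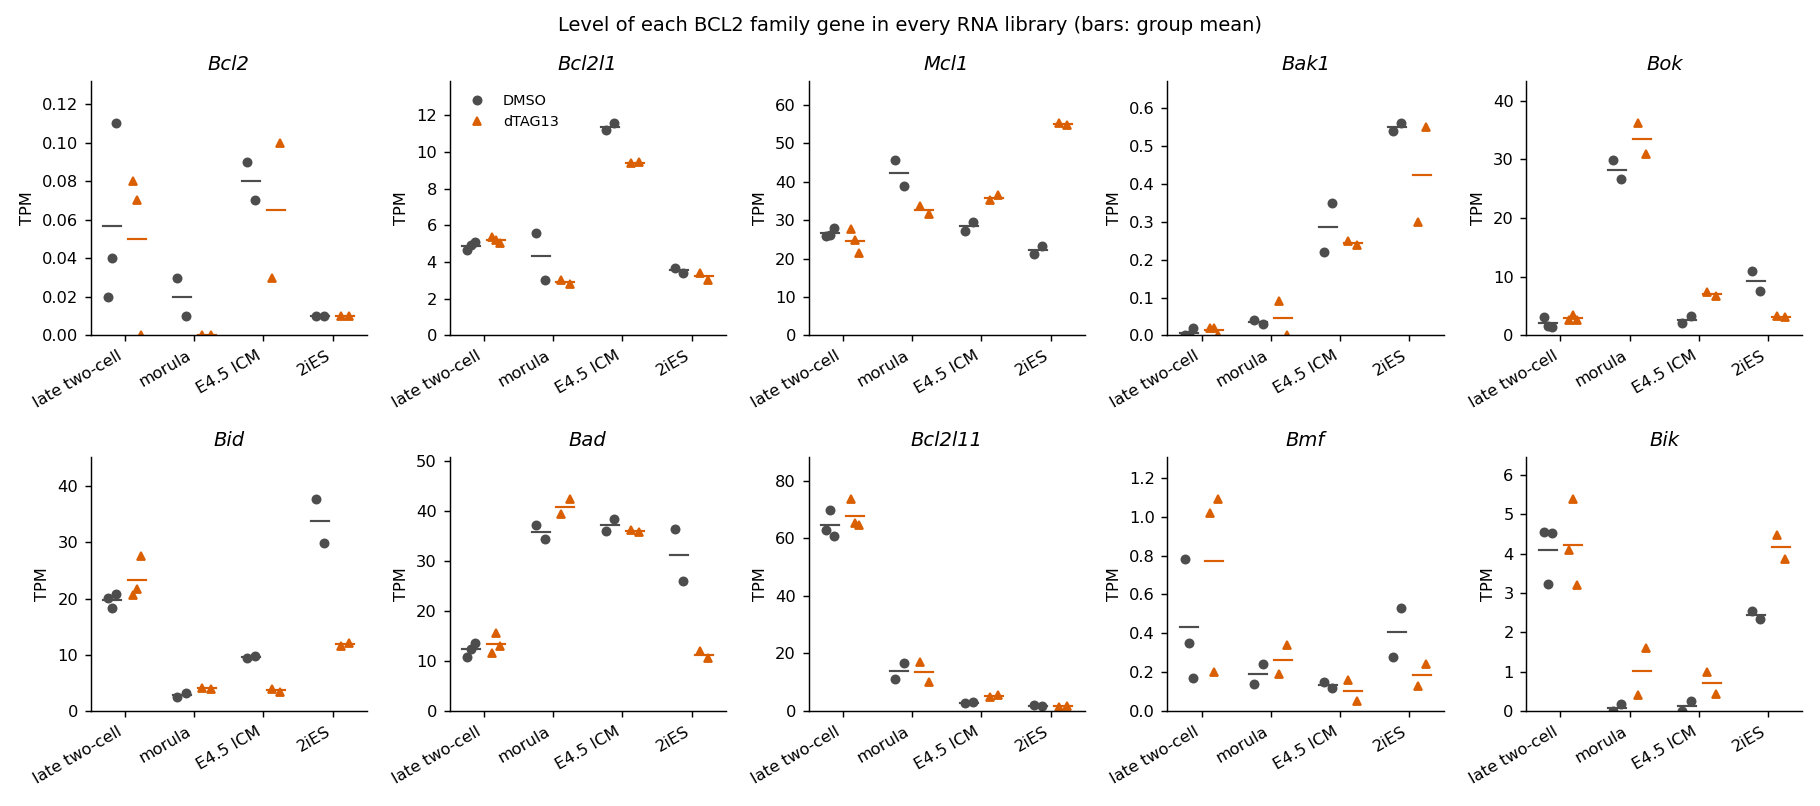
Level of each of the 10 genes in TPM (vertical axis, from 0, with its own scale in each panel) in every library of the 4 stages, with DMSO libraries as grey circles, dTAG13 libraries as orange triangles and bars at the group means. *Bcl2l11* stood at 60.71 TPM or more in the late two-cell libraries and at 17.11 TPM or less elsewhere, *Bok* peaked in morulae, and *Mcl1* reached 55.22 and 54.90 TPM in dTAG13-treated 2iES cells.

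No member passed the test with dTAG13 in late two-cell embryos or in morulae. At the late two-cell stage 8 members were tested and 0 passed, beside 8.56% of the 17421 genes tested. An unadjusted p under 0.05 was reached by 0 members with edgeR, beside 3706 of these genes, and by 0 members with DESeq2. Maternal marker transcripts summed to 1360 to 1368 TPM with DMSO and 1724 to 1954 with dTAG13 at this stage. *Oosp1* made up most of these sums, with means of 1175 and 1573 TPM, and was the only 1 of the 6 markers that passed. The part of maternal transcripts was not tested. In morulae 7 members were tested, with 0 passing, in a comparison in which 0.366% of 13667 genes passed. By either tool 0 members were at an unadjusted p under 0.05, beside 1854 of these genes by edgeR. The intervals were narrow for well-counted members. For *Mcl1* the log2 change at the late two-cell stage was -0.18 with a 95% interval of -0.45 to 0.08, and for *Bcl2l11* it was -0.04 with an interval of -0.32 to 0.23. *Bid* gave 0.17 (-0.14 to 0.48), and the 8 members had a median of -0.05 against 0.02 over all genes. *Bmf* and *Bok*, with far fewer counts, gave intervals of -1.43 to 1.31 and -0.40 to 1.32, so that a rise of more than 2-fold would have stayed within both. In morulae *Mcl1* was at 33.63 and 31.66 TPM with dTAG13, below both DMSO libraries, but its log2 change of -0.37 had an interval of -0.78 to 0.05 (adjusted p = 0.425), and *Bid* at 4.17 and 3.94 TPM was above both, with 0.49 and an interval of -0.18 to 1.15 (adjusted p = 0.520). *Bok* and *Bad* were likewise higher in both dTAG13 libraries without passing (0.25 and 0.15). *Bcl2l1* had the largest change of those tested, a fall of -0.62 (interval -1.35 to 0.12, adjusted p = 0.453), while *Bcl2l11* gave 0.24 and *Bmf* -0.20. The 7 members tested had a median of 0.15, against -0.02 over all genes. *Bik* had 5 and 18 counts with dTAG13 in morulae against 0 and 2, a ratio of 9.91 in counts per library total with an exact 95% interval of 2.45 to 86.7. That interval covers counting error only, and *Bik* was below the count filter of the test.

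In the E4.5 ICM, 4 of the 7 members tested passed, 3 higher and 1 lower, while 76.9% of all 15840 genes tested did (38.4% higher and 38.5% lower). *Bid* and *Bok* had the largest changes of these 4. *Bid* fell from 9.48 and 9.76 TPM with DMSO to 3.96 and 3.41 with dTAG13 (9.62 ± 0.198 against 3.69 ± 0.389, SD, n = 2 each). The groups lay apart, with a log2 change in count of -1.56 (standard error 0.11, 95% interval -1.79 to -1.33, adjusted p = 6.18e-15, edgeR). *Bok* rose from 2.08 and 3.27 TPM to 7.44 and 6.70, again with no overlap (log2 change 1.49, standard error 0.18, adjusted p = 1.69e-09). *Bcl2l11* rose by less, from 2.7 and 3.23 TPM to 4.95 and 5.56 (log2 change in count 0.52, adjusted p = 0.00173), and *Mcl1* by less still, from 27.24 and 29.53 to 35.16 and 36.66 (log2 change 0.30, 95% interval 0.22 to 0.38, adjusted p = 3.71e-08). In a fit of all 18 libraries, which takes its spread from every stage, the last 2 no longer passed (adjusted p = 0.0792 and 0.0884).

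*Bcl2l1* was lower in both dTAG13 libraries of the E4.5 ICM, 9.37 and 9.46 TPM against 11.20 and 11.55, but did not pass (log2 change -0.17, adjusted p = 0.0590). *Bad* was at 36.19 and 35.85 TPM against 36.08 and 38.43 (log2 change -0.10, 95% interval -0.24 to 0.03), an interval that leaves out a change of 1.5-fold in either direction. *Bmf* gave -0.40 (-1.41 to 0.61). *Bik* had 18 and 9 counts with dTAG13 against 0 and 2, a ratio of 14.6 with an exact interval of 3.67 to 127. *Bcl2* (4 and 14 counts with dTAG13 against 6 and 8) and *Bak1* (9.10 and 9 against 9 and 13) were not tested. The members had a median log2 change of -0.10, against 0.01 over all genes. Replicate libraries here differed by 1.62 (DMSO) and 1.69 (dTAG13) times the variance that sampling of reads alone gives, against 8.20 to 16.1 times in the late two-cell and morula groups and 2iES with DMSO and 2.86 times in 2iES with dTAG13. When a 2-fold change and a group mean of 1 FPKM (a read density per length and depth) were required as well, 25.2% of genes and 2 members, *Bid* and *Bok*, remained.

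In 2iES cells 6 of the 9 members tested passed, 3 in each direction, against 54.6% of all 15511 genes tested (26.5% higher and 28.1% lower). *Mcl1* rose from 21.29 and 23.24 TPM to 55.22 and 54.90 (22.3 ± 1.38 against 55.1 ± 0.226, SD, n = 2 each), a level above that of every other library in the series. Its log2 change in count was 1.38 (standard error 0.11, 95% interval 1.12 to 1.64, adjusted p = 0.000150). Genes of 3 pro-death proteins fell. *Bid* went from 37.68 and 29.83 TPM to 11.65 and 12.13 (log2 change -1.43, standard error 0.15, adjusted p = 0.000386), *Bad* from 36.35 and 26.00 to 11.91 and 10.66 (-1.40, standard error 0.20, adjusted p = 0.00134) and *Bok* from 10.89 and 7.49 to 3.33 and 3.07 (-1.44, standard error 0.22, adjusted p = 0.00195). For each of these 4 genes both dTAG13 libraries lay outside the range of the DMSO libraries, and all 4 also met the fold and FPKM limits, which 28.0% of genes did.

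*Bik* rose in 2iES cells from 2.55 and 2.34 TPM to 4.47 and 3.87, with a log2 change of 0.82 (95% interval 0.27 to 1.37, adjusted p = 0.0220). It did not pass by DESeq2 (adjusted p = 0.0946), nor without either dTAG13 library (adjusted p = 0.174 without the first and 0.0974 without the second). *Bcl2l1* was at 3.41 and 3.03 TPM against 3.68 and 3.42 (log2 change in count 0.03, 95% interval -0.39 to 0.44). *Bak1* fell short of the test at 0.30 and 0.55 TPM against 0.54 and 0.56 (-0.38, interval -1.40 to 0.63). *Bmf*, with 11 to 16 counts per library, gave 0.63 in count (interval -0.48 to 1.73). Its TPM went the other way, from 0.28 and 0.53 with DMSO to 0.13 and 0.24 with dTAG13. *Bcl2* held 1 to 3 counts. The 9 members had a median of 0.03, as did all genes. Cell type markers were measured beside them: the EPI sum was 554.7 to 664.0 TPM with DMSO and 409.9 to 448.3 with dTAG13 (1 of 9 higher and 3 lower). The TE sum was 109.6 to 140.6 against 126.6 to 132.2 (0 of 6 tested higher and 2 lower), with *Elf5* at 0 in DMSO. The PrE sum was 3.36 to 5.15 against 4.54 to 4.93 (2 of 5 tested higher and 0 lower). Their part in these results was not tested.

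Reads of *Bid* and *Bad* can be shared with a neighbour, because the library kits did not keep the strand. In the GENCODE M21 annotation 628 of the 3550 exon bases of *Bid* (17.7%) overlap exons of *Bcl2l13*, a mitophagy receptor of the same family that is transcribed from the other strand, and 524 of 2558 exon bases of *Bad* (20.5%) overlap *Gpr137*. *Bcl2l13* moved in the direction opposite to *Bid*, from 2.66 ± 0.0849 to 5.29 ± 0.311 TPM in the E4.5 ICM (log2 change 0.85, adjusted p = 2.17e-11) and from 1.06 ± 0.163 to 1.81 ± 0.127 in 2iES cells (0.86, adjusted p = 0.00978; SD, n = 2). *Gpr137* was at 0.930 ± 0.651 TPM with DMSO and 0.39 ± 0.141 with dTAG13 in 2iES cells, far below *Bad*. In the E4.5 ICM it rose from 2.98 ± 0.891 to 6.165 ± 2.185 TPM (log2 change 0.97, adjusted p = 6.79e-05, edgeR). The quantification tool's own error on the counts of *Bid* was at most 8.70 in any library. *Bak1* shares 25.5% of its exon bases with *Ggnbp1*, and the tool's error on its counts was at most 1.29. *Ggnbp1*, read under the first of its 2 gene IDs, went from 6.15 ± 1.51 to 16.8 ± 0.481 TPM in 2iES cells (log2 change 1.03, adjusted p = 0.0125; SD, n = 2) and was at 4.51 ± 1.00 and 4.87 ± 0.0707 TPM in the E4.5 ICM.

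**Figure D2:**
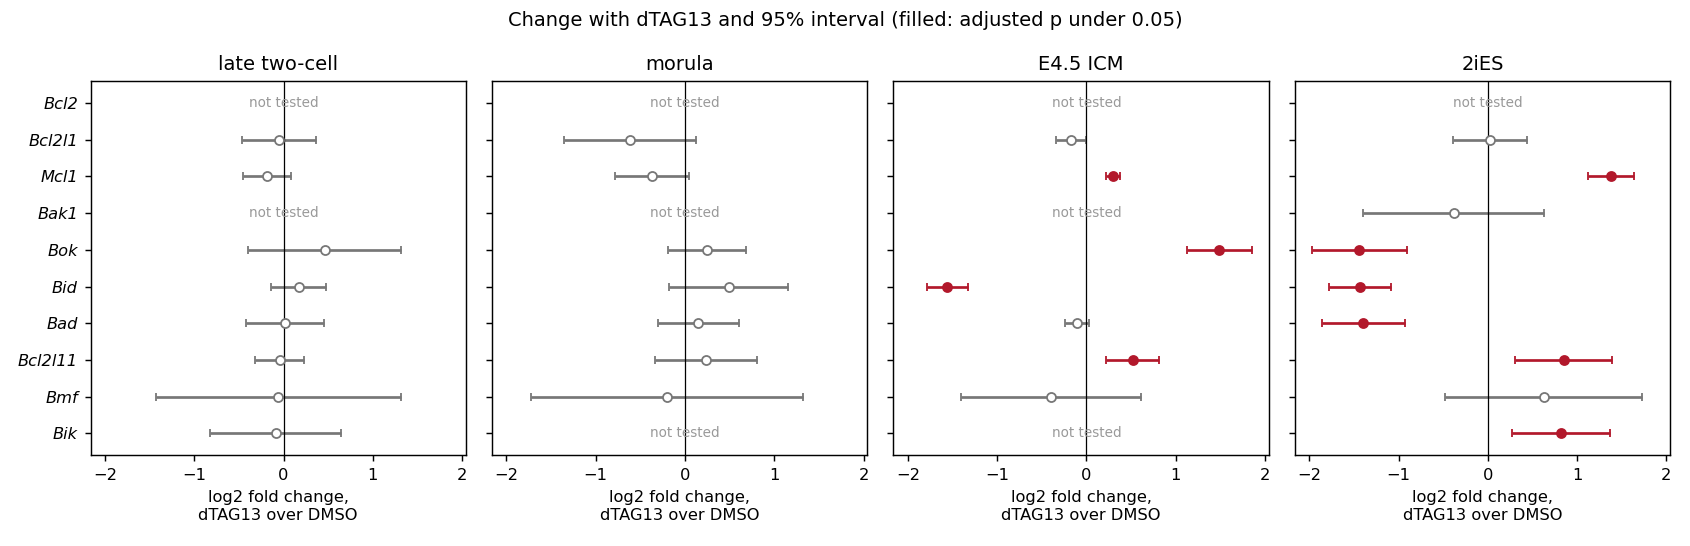
Log2 fold change in count of dTAG13 over DMSO (horizontal axis) with its 95% interval for each gene at each stage, filled where the adjusted p was under 0.05. No gene passed before the blastocyst, *Bid* lay at -1.56 and -1.43 in the E4.5 ICM and 2iES, and *Bok* lay at 1.49 in the E4.5 ICM and -1.44 in 2iES cells.

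Among the members that passed the test, reads and length-corrected level moved in opposite directions for *Bcl2l11* in 2iES cells and for no other. Its counts rose there from 78 and 69 to 116 and 106 (log2 change 0.85, 95% interval 0.31 to 1.39, adjusted p = 0.0182, edgeR), but its TPM went from 1.98 and 1.79 to 1.46 and 1.74, a log2 ratio of mean TPM of -0.22. Between the groups the transcript length that the quantification gave the gene, a mean over its transcripts weighted by their abundance, went from 1379 and 1318 bases to 2606 and 2487. The GENCODE M21 annotation holds 8 transcripts of *Bcl2l11*, from 391 to 5036 bases long. Longer transcripts yield more reads per molecule, so that counts and TPM answer different questions here, and with 69 to 116 counts per library the division among transcripts is itself uncertain. The count result did not pass by DESeq2 (adjusted p = 0.0629) or without either dTAG13 library (adjusted p = 0.0703 and 0.154). In the E4.5 ICM the length moved the other way, from 2384 and 2143 bases to 1999 and 1824, and counts and TPM both rose. The late two-cell libraries kept to 1303 to 1453 bases in both groups.

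**Figure D3:**
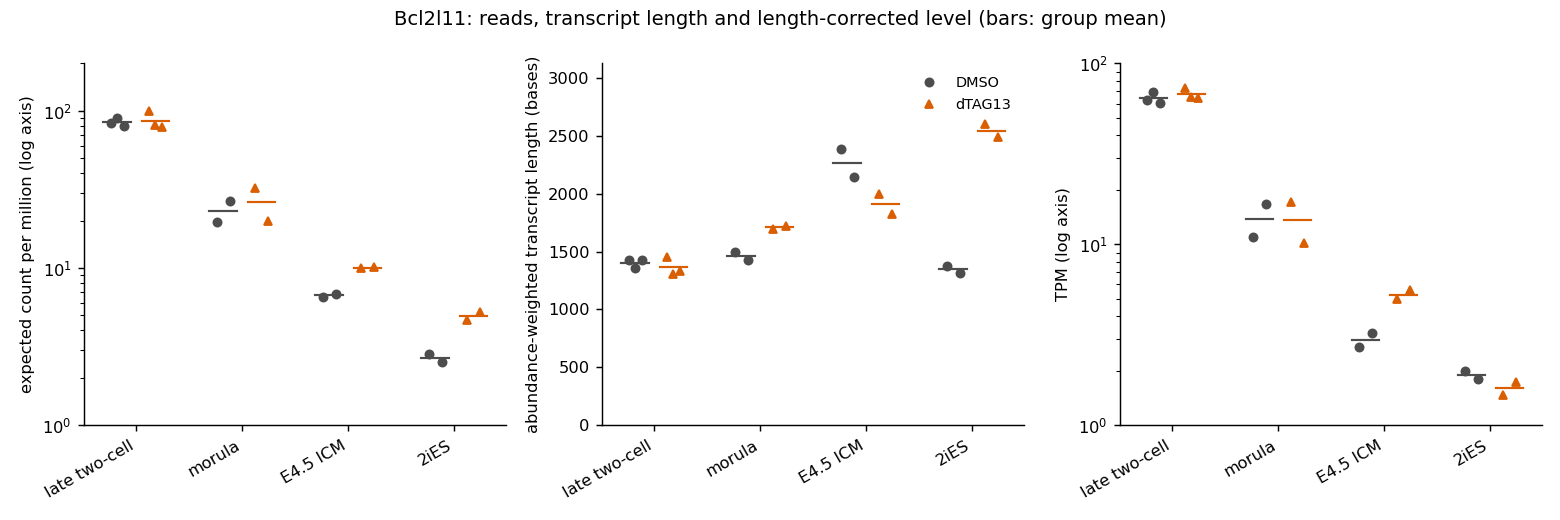
*Bcl2l11* in every library, drawn as CPM, its expected counts over the library total (left, log axis), as abundance-weighted transcript length in bases (middle, from 0) and as TPM (right, log axis), with DMSO as grey circles, dTAG13 as orange triangles and bars at group means. In 2iES cells the dTAG13 libraries were higher in counts, at 2606 and 2487 bases against 1379 and 1318 in length, and lower in TPM.

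Whether the effect of dTAG13 differed between stages was tested directly as an interaction of stage and treatment. The E4.5 ICM and 2iES cells differed for 4 of 9 members tested, beside 41.9% of all 17657 genes. *Bok* differed most among the well-counted members, rising in the E4.5 ICM and falling in 2iES cells, with a difference of the log2 changes (2iES minus E4.5 ICM) of -2.91 (95% interval -3.60 to -2.22, adjusted p = 0.000128). *Mcl1* rose by 1.10 more in 2iES cells (0.84 to 1.36, adjusted p = 0.000132). For *Bad* the difference was -1.27 (-1.72 to -0.83, adjusted p = 0.000983), a fall in 2iES cells with no detectable change in the E4.5 ICM. *Bid*, which fell in both, had a difference of 0.15 with an interval of -0.25 to 0.54 (adjusted p = 0.542), which leaves out a difference of 1.5-fold or more. *Bik* also passed (-2.80, adjusted p = 0.0308), but that value rests on the 0 and 2 counts of the E4.5 ICM DMSO libraries, and it did not pass without the first DMSO or the first dTAG13 library of the E4.5 ICM (adjusted p = 0.147 and 0.115) or without either dTAG13 library of 2iES. A single library also set its size, which was -1.83 without the first and -5.95 without the second E4.5 ICM DMSO library.

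Between the late two-cell stage and the E4.5 ICM, in a comparison that shares the E4.5 ICM libraries with the one above, 3 of 9 members differed beside 22.5% of 20854 genes. *Bid* differed by -1.73 (E4.5 ICM minus late two-cell, 95% interval -2.20 to -1.27, adjusted p = 0.000275). *Mcl1* was at the threshold with 0.47 (0.13 to 0.81, adjusted p = 0.0497) and did not pass with either other scaling or in 9 of the 10 fits that left out 1 library (adjusted p up to 0.174), although it passed by DESeq2. *Bik* gave 3.73 (adjusted p = 0.0175), again on near-zero DMSO counts, and did not pass without the first DMSO or the first dTAG13 library of the E4.5 ICM (adjusted p = 0.0833 and 0.0866). Its size was 2.77 without the first and 6.99 without the second of those DMSO libraries. For *Bcl2l11* the difference of 0.56 fell just short (0.15 to 0.96, adjusted p = 0.0524).

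Summed by role over the 10 members on the TPM scale, BH3-only transcripts exceeded survival transcripts in 8 of the 9 DMSO libraries, the exception being the first morula library with 50.8 against 51.4 TPM. Survival genes summed to 30.7 to 33.2 TPM and BH3-only genes to 99.2 to 104.2 in late two-cell DMSO libraries. Morulae gave sums of 41.9 to 51.4 and 50.8 to 54.6, and the E4.5 ICM gave 38.5 to 41.2 and 48.4 to 51.8. 2iES cells with DMSO held 25.0 to 26.7 TPM of survival and 60.5 to 78.8 TPM of BH3-only transcripts, and with dTAG13 the order turned to 57.9 to 58.6 against 28.6 to 29.6. In the E4.5 ICM with dTAG13 the sums were 44.6 to 46.2 and 45.3 to 46.3. These sums are carried by few genes, *Mcl1* on the survival side and *Bcl2l11*, *Bad* or *Bid* on the other, and no test was run on them. They also leave out relatives with the same roles, and the order depended on that choice, which was examined after the sums were seen. With *Pmaip1*, *Bbc3* and *Hrk* added to the BH3-only side and *Bcl2l2*, *Bcl2l10* and the 3 *Bcl2a1* genes to the survival side, 2iES cells with dTAG13 held 60.0 to 60.9 TPM of survival and 107.9 to 111.4 TPM of BH3-only transcripts, so the order did not turn there (25.8 to 27.4 and 83.0 to 104.0 with DMSO). At the late two-cell stage the wider sums of survival transcripts, at 108.8 to 124.0 TPM, overlapped those of BH3-only transcripts, at 104.6 to 110.0, in the DMSO libraries, and were above them with dTAG13 (142.0 to 173.9 against 116.5 to 122.3).

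**Figure D4:**
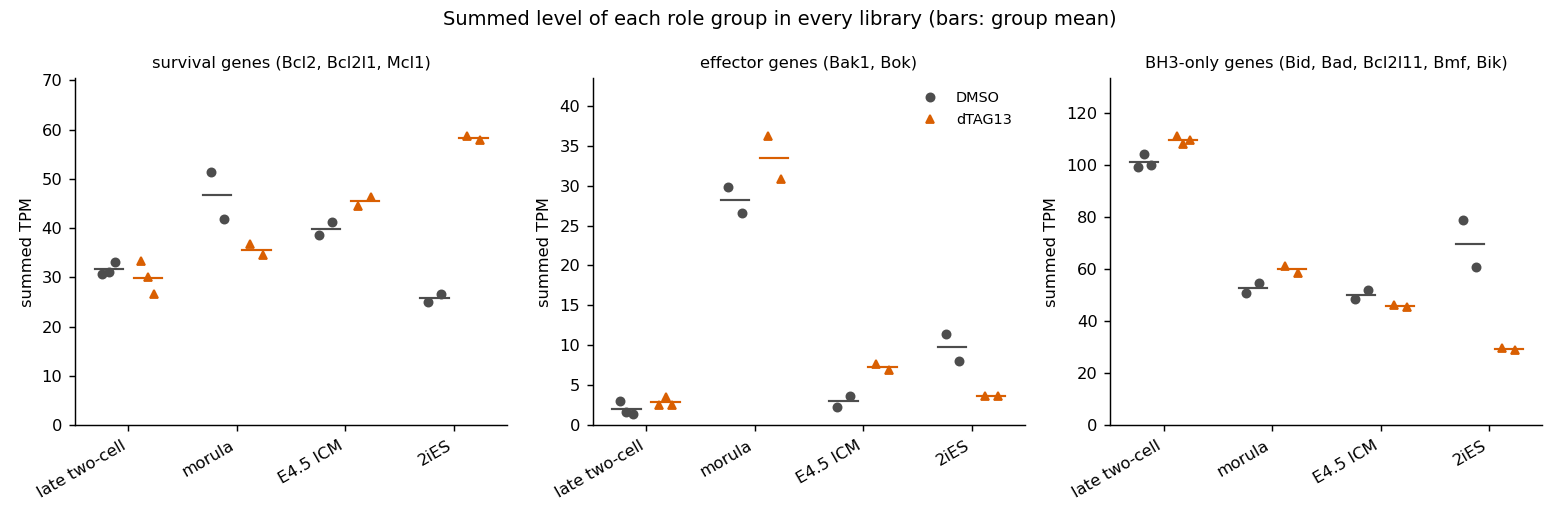
Summed TPM (vertical axes, from 0) of the 3 survival, 2 effector and 5 BH3-only members in every library, with DMSO as grey circles, dTAG13 as orange triangles and bars at group means. In 2iES cells the survival sum went from 25.0 to 26.7 TPM with DMSO to 57.9 to 58.6 with dTAG13. The BH3-only sum there went from 60.5 to 78.8 to 28.6 to 29.6 and the effector sum from 8.05 to 11.4 to 3.62 to 3.63. With *Bax* added, which is not drawn, the effector sum was 517.1 to 720.9 TPM with DMSO and 487.6 to 520.6 with dTAG13.

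The p53-target members of the family moved beside them: *Bax*, the effector with the highest level here, did not pass in the E4.5 ICM or in 2iES cells (log2 changes -0.04 and -0.21), whereas *Bbc3*, which encodes PUMA, passed with 1.39 and 1.27 and *Pmaip1*, which encodes the MCL1-binding NOXA, with 0.42 and 1.83 (adjusted p at most 0.0173 in each).

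Genes around the family in the pathway were taken from fixed lists. Of 12 other family members, 8 were tested in the E4.5 ICM, where 3 were higher and 4 lower (median log2 change -0.47, against 0.01 over all genes tested). In 2iES cells 8 were tested, with 3 higher and 3 lower (median 0.47 against 0.03). Beside these counts, 76.9% of all genes tested passed in the E4.5 ICM and 54.6% in 2iES cells. *Bnip3*, a mitophagy receptor induced in hypoxia, rose in both, from 31.02 ± 2.09 to 91.6 ± 1.85 TPM in the E4.5 ICM (log2 change 1.51, adjusted p = 1.31e-27) and from 9.16 ± 2.16 to 21.2 ± 1.46 TPM in 2iES cells (1.27, adjusted p = 0.00211). In 2iES cells *Bcl2l10*, a survival protein of oocytes, rose from a low level (2.77, adjusted p = 0.00177), while *Bcl2l14* (-2.09, adjusted p = 0.000462) and *Bcl2l12* (-1.42, adjusted p = 0.00232) fell.

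Downstream of the membrane, the list of mitochondrial release and apoptosome genes gave 5 higher and 3 lower of 10 in the E4.5 ICM (median 0.17) and 2 higher and 5 lower in 2iES cells (median -0.42). Of all genes 76.9% and 54.6% passed at these stages, so 8 of 10 and 7 of 10 are near the background, and the same shares stand beside the smaller lists that follow. *Apaf1*, the scaffold of the apoptosome, rose in both: from 5.09 ± 0.0707 to 8.13 ± 0.347 TPM in the E4.5 ICM (log2 change 1.00, adjusted p = 1.12e-10) and from 3.17 ± 1.21 to 20.7 ± 1.27 in 2iES cells (2.85, adjusted p = 0.000249). *Diablo*, which encodes the SMAC protein released from mitochondria to free caspases from their inhibitors, fell in 2iES cells from 143.8 ± 23.1 to 42.1 ± 0.382 TPM (log2 change -1.82, adjusted p = 0.000123), and *Casp9*, the caspase that the apoptosome activates, fell there from 1.12 ± 0.212 to 0.255 ± 0.00707 TPM (-2.26, adjusted p = 0.00241). Of the 5 other caspases 3 were higher and 2 lower in the E4.5 ICM (median 0.27), *Casp8* among the latter (-1.27, adjusted p = 0.000371), with 2 higher and 1 lower in 2iES cells (median 0.45). The 5 inhibitors of apoptosis gave 0 higher and 3 lower in the E4.5 ICM (median -0.33), where *Birc3* fell by 2.47 on the log2 count scale (adjusted p = 2.12e-09), and 3 higher and 1 lower in 2iES cells (median 0.64). The TPM of *Birc3* in the E4.5 ICM changed by less, from 1.92 and 1.48 to 1.33 and 0.41, as its weighted transcript length went from 2243 and 2684 bases to 880 and 1340 on 19.03 and 10.04 counts.

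MCL1 is removed by ubiquitin ligases, and 3 genes of its turnover were listed. *Fbxw7*, which encodes the substrate receptor of one such ligase, rose from 4.48 ± 0.0707 to 11.03 ± 0.0849 TPM in the E4.5 ICM (log2 change 1.12, adjusted p = 4.85e-16) and from 4.19 ± 0.948 to 38.7 ± 1.60 TPM in 2iES cells (3.18, adjusted p = 5.28e-05). *Huwe1*, another such ligase, was higher in the E4.5 ICM (0.48, adjusted p = 4.82e-15) and *Usp9x*, a deubiquitinase of MCL1, lower (-0.91, adjusted p = 1.56e-23), and neither passed in 2iES cells. At the late two-cell stage *Bcl2l10* was higher (79.1 ± 5.64 against 126.0 ± 14.8 TPM, SD, n = 3, log2 change 0.61, adjusted p = 0.00975) and *Diablo* lower (153.8 ± 8.15 against 96.5 ± 1.92 TPM, -0.71, adjusted p = 0.000813). *Huwe1* and *Usp9x* in the E4.5 ICM and this pair at the late two-cell stage passed without meeting the fold and FPKM limits as well. They are named after their values were seen. Of the other pathway lists no gene passed at that stage, where 8.56% of all genes did, while *Gabpa* and 1 gene each of the two-cell, maternal and cumulus markers were higher. In morulae no gene of any list passed, against 0.366% of all genes.

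For the 4 members that met all limits at a stage, the genes with the most similar pattern were found among 7998 protein-coding genes with a mean of at least 10 TPM in a group, by Pearson's r of log2(mean TPM + 0.1) over the 8 groups of libraries. The 3 nearest genes were *Rogdi*, *Borcs7* and *Mrpl48* for *Bad* (r = 0.985, 0.983 and 0.978), *Polr2c*, *Cep19* and *Copz2* for *Bid* (0.975, 0.975 and 0.966), *Mboat1*, *Rragd* and *Arih2* for *Bok* (0.967, 0.958 and 0.949) and *Dop1a*, *Hist2h2aa2* and *Atr* for *Mcl1* (0.905, 0.897 and 0.880). The 8 points share libraries and scaling, and the values describe these groups only.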

How the data were processed

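RNA-seq libraries of *Gabpa*-dTAG/dTAG embryos and ES cells were prepared with SMART-Seq v4 and Nextera XT kits, which do not keep the strand, and sequenced in pairs. Per the study's methods, the authors trimmed reads with Trimmomatic (0.39 in the submitters' processing notes), used STAR for alignment to GRCm38 and RSEM for gene quantification. The authors deposited, per library, expected counts (RSEM's estimates, not normalized), TPM and FPKM values, and an abundance-weighted transcript length per gene. The genome sequence came from Ensembl, and the gene annotation behind the tables is not given in the sources used here. Of 55385 gene IDs, 54487 matched GENCODE M21 with version, 657 without and 241 not at all.

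Groups came from the labels, which number the replicates without naming litters or cultures. The study describes its RNA-seq replicates of late two-cell embryos, E4.5 ICM and 2iES cells as biological. The p-values measure the spread between these libraries, whose litters or cultures are not known here. Expected counts were rounded and tested within each stage with edgeR 4.0.16 (R 4.3.3; TMM scaling, quasi-likelihood test, genes kept with 10 or more counts in as many libraries as were in the smaller group, Benjamini-Hochberg adjustment over all genes tested). A gene passed at an adjusted p under 0.05. The limits of the study further ask for a 2-fold change and for 1 FPKM or more in the mean of either group. Interactions were fitted on 2 stages at a time, and stage levels on the 9 DMSO libraries. TPM was used for levels, with a pseudocount of 0.1 for log2 ratios. Ratios of sparse counts carry exact 95% intervals, which cover counting error only. Alternatives were DESeq2 1.42.0, other scalings, no count filter, all 18 libraries in 1 fit, a replicate block and leaving out each library.

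The members, named by symbol, and the gene lists were chosen with earlier results of these data known. All 10 members were plotted at each stage, but some have no dTAG13 value in the text for late two-cell embryos or morulae. At most 2 genes per list, stage and direction were named, those with the largest changes past all limits. Exceptions included the p53 targets, the cell type markers, genes that overlap a member and those named after their values were seen. The binding, accessibility and histone libraries were not analysed here. No column of per-sample values was left unmapped.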

Additional observations from a re-analysis of the deposited data

Results flagged for a closer look

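The effect of dTAG13 differed between stages, by a test of the interaction itself, for 7 member and stage combinations. Between the E4.5 ICM and 2iES cells (log2 change in 2iES minus that in the E4.5 ICM, edgeR) these were *Bok* at -2.91 (adjusted p = 0.000128), *Mcl1* at 1.10 (adjusted p = 0.000132), *Bad* at -1.27 (adjusted p = 0.000983) and *Bik* at -2.80 (adjusted p = 0.0308). Both E4.5 ICM dTAG13 libraries of *Bok* lay above their DMSO libraries and both 2iES dTAG13 libraries below theirs.

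Between the late two-cell stage and the E4.5 ICM (E4.5 ICM minus late two-cell) these were *Bid* at -1.73 (adjusted p = 0.000275), *Bik* at 3.73 (adjusted p = 0.0175) and *Mcl1* at 0.47 (adjusted p = 0.0497). The comparisons share the 4 E4.5 ICM libraries, in which TE markers were higher with dTAG13, and doses and lengths of treatment differed between the stages. The part of either in these values was not tested. The values of *Bik* rest on 0 and 2 counts in the E4.5 ICM DMSO libraries, and without the first or the second of these they were 2.77 or 6.99 against the late two-cell stage and -1.83 or -5.95 against 2iES.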

How the results depend on the processing

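In late two-cell embryos and morulae 0 members passed under every alternative run. The E4.5 ICM count of 4 was 3 to 5 under other scalings, tools, filters and sets of libraries, and 2 (*Bid* and *Bok*) with the fold and FPKM limits, which are stricter by construction. Without 1 replicate it was 4 to 5. The 2iES count of 6 was 4 to 6, with *Bcl2l11* and *Bik* the calls lost under DESeq2 and without either dTAG13 library. *Bcl2l11* in 2iES reversed to -0.22 by the log2 ratio of mean TPM, as its weighted length grew. The count of differences between the late two-cell stage and the E4.5 ICM (3) was 1 to 4 without 1 replicate, being 1 (*Bid*) without the first DMSO or the first dTAG13 E4.5 ICM library. The count of differences between the E4.5 ICM and 2iES (4) was 3 to 4, with *Bik* lost. Stage differences among DMSO libraries numbered 29 to 34 (33 as reported). Over 50 member results past the threshold and 649 alternatives, 605 kept direction and call, 43 lost the call (30 of them without 1 replicate) and 1 reversed.

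Replicate numbers did not pair the libraries: deviations of same-numbered libraries correlated at 0.019, 0.051 and 0.055 in late two-cell embryos, 0.01 in morulae, 0.01 in the E4.5 ICM and -0.133 in 2iES. With the replicate block the counts were 0, 0, 4 and 6, those of the differences were 1 (late two-cell against E4.5 ICM, *Bid*) and 3 (E4.5 ICM against 2iES), and the crossed pairing in 2iES, added after seeing the data, gave 6. Scaling by library totals moved the share of higher genes among all genes called from 15.4% to 25.6% at the late two-cell stage, where DESeq2 gave 25.4%, and from 44.0% to 31.3% in morulae. Depth limited *Bcl2*, *Bak1*, *Bmf* and *Bik*, for which changes may not have been detectable.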
